A study of Mus musculus with 92 samples.

Results

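The 10 genes described here are Tnf, Il1a, Il1b, Il1rn, Il6, Il10, Il12b, Il18, Il18bp and Nos2, taken by what they encode from the 29956 named genes of the deposited table. They encode inflammatory cytokines, secreted inhibitors of cytokines and the inducible nitric oxide synthase. The study asked how donor cells take on a microglial state in mouse brains that lack microglia, and what loss of Adar1, the gene Adar, does in such cells. It profiled bone marrow cells, conditionally immortalized ER-Hoxb8 cells, cells re-isolated from brain and untreated microglia by bulk RNA sequencing. In a further set it gave macrophages baricitinib, an inhibitor of the JAK kinases.

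All cells came from FVB mice. Bone marrow (BM) progenitors and BM monocytes were taken from wild type marrow, and bone marrow derived (BMD) macrophages were wild type marrow cells after 7 days in vitro. ER-Hoxb8 cells came from a Cas9 mouse, heterozygous by the labels, and were profiled as progenitors, after 4 days in vitro, and after 7 days as macrophages. Microglia-like cells (MLC) were BMD or ER-Hoxb8 cells injected into the brain of Csf1r knockout hosts and sorted again by surface markers. The titles of ER-Hoxb8 MLC name no Cas9 mouse, so whether they came from the same line as the ER-Hoxb8 macrophages is uncertain. Microglia came unmanipulated from wild type brain. Non-targeting control (NTC) and Adar1 knockout (KO) cells were Cas9 heterozygous ER-Hoxb8 cells that received a guide, with guides 1 and 2 for Adar1, profiled as progenitors and as macrophages after 7 days. Baricitinib was given at 0, 0.0006, 0.016, 0.4 or 10 uM by the sample titles, to NTC and guide 1 macrophages only. The treatment protocol of the same samples gives 0.00064 and 0.16 uM where the titles give 0.0006 and 0.016 uM. The lower of these doses differs only by rounding, while the true dose of the 0.016 uM groups is uncertain. The title doses are used as names. Groups held 3 libraries, except 6 of each MLC kind, 9 of microglia, 5 of guide 2 macrophages, and 4 at 0.016 and 0.4 uM in NTC and at 10 uM in KO. The labels give no sex, host age or culture number for the libraries. The model has limits: knockout hosts lack microglia from birth, so the injected cells met an empty niche, and ER-Hoxb8 cells are an engineered line.

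The 92 libraries fell into 6 sets that had been scaled apart, and tests were made only within a set, on levels in CPM, which is counts per M counts of a library, or its log2. Values of different sets are at most set side by side. Median depth, in M counts, was 34.89 in BM progenitors, 43.01 in BM monocytes, 40.59 in ER-Hoxb8 progenitors and 40.11 at day 4. It was 25.11 in BMD macrophages, 39.7 in ER-Hoxb8 macrophages, 23.12 in BMD MLC, 19.69 in ER-Hoxb8 MLC and 23.13 in microglia. In the knockout sets the medians were 21.07 and 37.48 in guide 1 progenitors and macrophages, 21.17 and 25.51 in NTC, and 21.68 and 22.72 in guide 2. Baricitinib libraries were shallower, from 6.042 to 34.22 with a median of 12.21. The labels do not say whether replicates were separate animals or cultures, while the paper calls those of the marrow, first in vitro and brain groups biological replicates. For the baricitinib cultures the paper describes replicates that were differentiated independently, with RNA then taken from the adherent cells. Each p value measures the spread between these samples. Whether the libraries of a guide came from separately transduced lines is not given. If they came from the same line, a difference between knockout and NTC cannot be told apart from a difference between lines.

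Tnf, IL-1 alpha and IL-1 beta are early signals of innate immune cells, and the product of Il1rn blocks the IL-1 receptor. IL-18 needs cleavage by caspase-1 as IL-1 beta does, and the product of Il18bp binds and neutralizes it. IL-12 p40 from Il12b and nitric oxide from the Nos2 product mark activated macrophages, while IL-10 restrains them. ADAR1 edits double-stranded RNA, and without it such RNA can set off interferon signaling through JAK kinases.

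Marker genes fitted the labels in most groups. The summed macrophage markers had medians of 9418 CPM in BMD macrophages, 9565 in ER-Hoxb8 macrophages and 10790 in NTC macrophages, and of 206.5 in BM progenitors and 289.5 in NTC progenitors, side by side across sets. Csf1r and Cd68 stood apart in the ER-Hoxb8 progenitors measured beside marrow cells: their Csf1r level ran from 8.54 to 1397 CPM and their Cd68 level from 83.43 to 1811 CPM, while Kit was 0.5406 to 32.56 CPM against 129.8 to 279.4 CPM in BM progenitors. These ER-Hoxb8 progenitors were therefore a mixed group by markers, and their Tnf and Il1rn results below carry that limit. Among the brain groups the summed microglia markers were 62960 to 86730 CPM in microglia, 5860 to 20680 CPM in BMD MLC and 875.9 to 11510 CPM in ER-Hoxb8 MLC.

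Marker RNA of other cell types was found in the sorted brain cells, and whether it came from other cells or from the donor cells was not tested. The summed level of 10 neutrophil genes in BMD MLC was 8016, 4757, 30440, 34240, 34200 and 32850 CPM, with Ngp the most abundant at a median of 12270 CPM. In ER-Hoxb8 MLC the same sum was 822.4, 260.4, 355.4, 19600, 43180 and 4094 CPM, with S100a8 the most abundant at a median of 783.8 CPM. Microglia held 444.2 to 6276 CPM, and no neutrophil gene was at 0 throughout any brain group. The neutrophil sum was 26.25 to 52.12 CPM in BMD macrophages and 33.61 to 129.2 CPM in ER-Hoxb8 macrophages. Monocyte genes summed to 1523 to 3915 CPM in BMD MLC and 13.04 to 1384 CPM in BMD macrophages. They summed to 629.9 to 6898 CPM in ER-Hoxb8 MLC, 30.92 to 800.3 CPM in ER-Hoxb8 macrophages and 1716 to 14670 CPM in microglia. The 7 lymphocyte genes summed to 9.46 to 95.3 CPM in BMD MLC, 17.4 to 217.3 CPM in ER-Hoxb8 MLC and 2.90 to 21.3 CPM in microglia. Border macrophage genes summed to 2050 to 4642 CPM in BMD MLC, 99.5 to 1476 CPM in ER-Hoxb8 MLC and 15.28 to 129.3 CPM in microglia. Neutrophils can express several members, and the part of these cells in the member results was not tested. For every gene below, a change in the number of cells of a type and a change in RNA per cell cannot be told apart.

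The targeted gene, Adar, was measured in every library. In progenitors its log2 CPM was 4.36, 4.23 and 4.24 with guide 1, 4.20, 3.42 and 4.28 in NTC, and 4.35, 4.56 and 4.36 with guide 2. In macrophages it was 6.96, 7.16 and 7.01 with guide 1, 5.73 and 5.67 in NTC, and 7.02, 7.00, 7.02, 7.03 and 6.99 with guide 2. Adar mRNA was thus higher in guide 1 macrophages than in NTC macrophages, by 1.34 log2 (SE 0.21, adjusted p 0.000976), which is 2.54-fold. Cas9 insertions and deletions need not lower a transcript, and the gene level does not read the edited site, so it cannot check the labels.

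A few libraries stood apart and are named before the results. Adar1 KO replicate 2 at 0.4 uM baricitinib had an interferon-stimulated gene (ISG) mean of 10.57 log2 CPM against 1.52 and 3.19 in the other two, and its Adar, Tnf, Il1rn and Il18bp levels were also the highest of its group. Microglia replicate 8 held more neuron, oligodendrocyte and astrocyte marker RNA, at 144.9, 677.1 and 664.8 CPM, than any other microglia library, and it had the highest microglial Il1b. NTC macrophage replicate 2 was scaled apart from all other libraries measured here, so its values are given without a test. With which libraries it was scaled is not known. Its Tnf was 3.39, its Il1rn 4.22 and its Il18bp 3.15, on its own scale as deposited. Among ER-Hoxb8 MLC, replicates 1 to 3 and 4 to 6 carry different column names that the labels do not explain, and so do microglia replicates 8 and 9 against 1 to 7. BMD macrophage replicate 3 is also named differently from replicates 1 and 2. Over genes above 1 CPM its r with them was 0.866 and 0.832, against 0.929 between replicates 1 and 2. Its summed progenitor markers were 161.9 CPM against 19.2 and 3.096 CPM.

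Across the study the members split into genes seen nearly everywhere and genes seen rarely. Il1rn was above 1 CPM in all 92 libraries and Tnf in 87 of 92. Il18bp passed 1 CPM in 67 libraries, Il1a in 48, and Il1b and Il18 in 36 each. Il12b did so in 11, nearly all of them MLC. Il6, Il10 and Nos2 were close to absent: Nos2 passed 1 CPM in 4 libraries, Il10 in 3 and Il6 in 2. Il6 was above the lowest value of its set in 27 of 92 libraries and peaked at 4.418 CPM in ER-Hoxb8 progenitor replicate 1. No library of NTC macrophages under baricitinib and no guide 2 macrophage held any Il6 signal.

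Promoters are shown for Il1rn, Il1a, Tnf and Il18bp, which were called lower in KO at 10 uM below, and for Il6, which stayed near absent. Windows of 250 bases upstream and 50 downstream of the start were read for 8 members from the RefSeq table of GRCm38.p6, on both strands, and Il10 and Nos2 were not in that table. An interferon-stimulated response element was in 3.44% of 32851 promoters and the STAT motif TTCNNNGAA in 8.30%, and neither was in a member window. An NF-kB motif was in 1.47% of promoters and, among the members, in Il6. The AP-1 motif TGANTCA was in 7.81% of promoters and in those of Il1rn, Il1a and Il6. Il1rn has 3 windows in the table, and only the window shown holds the match. A match is a description, and no match says only that the letters are not in the window. The windows follow with matched letters in capitals for Il1rn (chr2:24336610-24336909, plus strand), Il1a (chr2:129309923-129310222, minus), Il6 (chr5:30012864-30013163, plus), Tnf (chr17:35201958-35202257, minus) and Il18bp (chr7:102018183-102018482, minus).
Il1rn: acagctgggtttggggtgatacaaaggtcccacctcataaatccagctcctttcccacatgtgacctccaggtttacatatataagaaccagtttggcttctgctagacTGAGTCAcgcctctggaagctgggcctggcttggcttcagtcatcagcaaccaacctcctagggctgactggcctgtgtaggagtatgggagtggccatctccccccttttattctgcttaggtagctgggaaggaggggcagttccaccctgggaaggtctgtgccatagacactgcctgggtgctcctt
Il1a: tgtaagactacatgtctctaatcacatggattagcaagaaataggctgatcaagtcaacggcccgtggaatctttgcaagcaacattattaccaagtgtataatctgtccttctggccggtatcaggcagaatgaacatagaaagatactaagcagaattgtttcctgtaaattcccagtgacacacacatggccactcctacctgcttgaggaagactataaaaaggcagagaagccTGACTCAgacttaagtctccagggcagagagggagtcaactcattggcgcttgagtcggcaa
Il6: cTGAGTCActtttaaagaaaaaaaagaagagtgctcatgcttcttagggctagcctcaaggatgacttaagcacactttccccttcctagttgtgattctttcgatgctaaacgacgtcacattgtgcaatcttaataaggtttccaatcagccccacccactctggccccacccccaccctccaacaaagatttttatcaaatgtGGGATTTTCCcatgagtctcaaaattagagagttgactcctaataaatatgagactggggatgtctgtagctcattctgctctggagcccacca
Tnf: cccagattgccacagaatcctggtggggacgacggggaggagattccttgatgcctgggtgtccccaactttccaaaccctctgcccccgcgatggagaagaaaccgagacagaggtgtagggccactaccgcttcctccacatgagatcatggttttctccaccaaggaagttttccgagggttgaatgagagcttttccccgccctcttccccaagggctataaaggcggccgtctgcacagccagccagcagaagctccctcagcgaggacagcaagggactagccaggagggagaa
Il18bp: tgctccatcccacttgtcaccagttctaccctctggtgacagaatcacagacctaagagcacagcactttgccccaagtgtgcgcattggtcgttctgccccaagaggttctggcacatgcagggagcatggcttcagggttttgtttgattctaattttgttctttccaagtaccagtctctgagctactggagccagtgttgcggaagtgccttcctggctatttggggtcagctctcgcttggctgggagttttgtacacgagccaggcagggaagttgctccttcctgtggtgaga

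Before the brain, Tnf and Il1rn separated the cell sources. The log2 CPM of Tnf was -2.64, 0.41 and 0.27 in BM progenitors, 1.16, 1.59 and 1.90 in BM monocytes, 2.17, 3.00 and 1.19 in ER-Hoxb8 progenitors, and 3.64, 3.24 and 3.65 at ER-Hoxb8 day 4. Il1rn was 1.12, 3.17 and 1.94 in BM progenitors, 4.09, 4.80 and 4.49 in BM monocytes, 8.59, 6.36 and 7.45 in ER-Hoxb8 progenitors, and 5.29, 6.40 and 5.19 at day 4. BM progenitors were lowest for both genes, with no overlap with any other group. Day 4 cells led for Tnf, and ER-Hoxb8 progenitors led for Il1rn with a narrow overlap with day 4.

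In the fit reported, monocytes and progenitors of wild type marrow differed, among the tested members, in Il1rn alone. By limma with Benjamini-Hochberg adjustment over 12056 genes, 1 of 6 tested members was called, where 13.8% of genes were. Il1rn rose by 2.38 log2 (SE 0.61, adjusted p 0.0259), a 5.21-fold difference in which all 3 monocyte libraries lay above all 3 progenitor libraries. This call was fragile: it was lost when any of 5 libraries was left out, with Il1rn at 1.90 and adjusted p 0.119 without BM progenitor replicate 1, 2.31 and 0.0861 without progenitor replicate 3, and 2.56 and 0.0522, 2.21 and 0.0905, or 2.37 and 0.0747 without monocyte replicate 1, 2 or 3. With no filter on low values the Il1rn adjusted p was 0.105. Tnf was 2.21 higher with all libraries apart, but its adjusted p was 0.0704. With library weights Tnf was called as well (1.41, adjusted p 0.033).

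ER-Hoxb8 progenitors carried more Tnf and far more Il1rn than BM progenitors, the comparison of an engineered with a natural progenitor. Here 2 of 6 members were called, where 25.5% of 12056 genes were. Il1rn was 5.39 log2 higher (SE 0.61, adjusted p 6.48e-05), or 41.8-fold. Tnf was 2.77 higher (SE 0.75, adjusted p 0.0178), or 6.82-fold. Its difference dropped to 1.78 (adjusted p 0.0401) without BM progenitor replicate 1, and the call was lost without ER-Hoxb8 progenitor replicate 2 (2.33, adjusted p 0.0517). The Tnf call was also lost with library weights (2.01, adjusted p 0.0735) and with no filter on low values (adjusted p 0.0666).

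Over 4 days of differentiation no member passed the test, and neither did any of 12056 genes (0%). At unadjusted p below 0.05, 1 of 6 members was left, Il1rn, which was lower at day 4 by a log2 difference of -1.84 (adjusted p 0.497). Without ER-Hoxb8 progenitor replicate 2 the Il1rn difference was -2.39 and was called (adjusted p 0.0272). Tnf was 1.39 higher at day 4 with the groups apart, but it was not called, with or without the replicate number as a block. Against BM monocytes, day 4 cells held less Il1b. Monocyte Il1b was 0.83, 2.00 and 1.46 log2 CPM and day 4 Il1b was -2.51, -0.30 and -1.42, with no overlap. Il1b was the 1 of 6 members called, where 17.5% of genes were, with a log2 difference of -2.84 (SE 0.67, adjusted p 0.0126). The Il1b call was lost without monocyte replicate 2 (-2.55, adjusted p 0.0554) or day 4 replicate 1 (-2.29, adjusted p 0.0574). Tnf was not called in this fit, although every day 4 library lay above every monocyte library. With library weights Tnf was called higher at day 4 than in monocytes (1.95, adjusted p 0.0343).

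Pathway lists were read against the share of all genes. Of 9 inflammasome genes, 8 were higher in monocytes than in BM progenitors and 8 in ER-Hoxb8 than in BM progenitors, with 0 lower in each, where 13.8% and 25.5% of all genes were called. Of 21 NF-kB regulators, 4 and 5 were higher and 0 were lower, which is near the share of all genes. For day 4 against BM monocytes 1 of 9 inflammasome genes was higher and 0 lower, where 17.5% of all genes were called. In the 4-day comparison 0 genes of any list passed.

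Between BMD and ER-Hoxb8 macrophages, the comparison of natural and engineered cells at day 7, no tested member was called, although with library weights Il1rn was called lower in ER-Hoxb8 macrophages (-1.63, adjusted p 0.0304). Tnf was 3.87, 2.15 and 5.18 log2 CPM in BMD macrophages and 3.54, 2.93 and 1.36 in ER-Hoxb8 macrophages. Il1rn was 6.11, 6.89 and 5.05 against 5.26, 4.12 and 7.26, and Il18bp was 1.81, 1.62 and 0.28 against 1.59, 2.71 and 5.21. The ranges of Tnf, Il1rn and Il18bp overlapped between these macrophages. Of 4 tested members 0 were called, 0 also at unadjusted p below 0.05, where 1.51% of 10764 genes were called. Il10 was not tested, but it was above the lowest value in all 3 BMD macrophage libraries and at the lowest value in all 3 ER-Hoxb8 macrophage libraries, a mean at least 5.39-fold higher in BMD macrophages and at least 2.55-fold without replicate 3. Such floors, set at 3 counts in each library at the lowest value, and their limits cover counting error only.

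In the brain some members stood far from their level in either macrophage, while Tnf and Il1rn overlapped it. Il1b was the clearest case: it was near the lowest value in macrophages and plainly expressed in MLC of both origins. Il1b in BMD macrophages was -1.95 log2 CPM in replicate 1 and at the lowest value, -3.62, in the other two, and in ER-Hoxb8 macrophages it was -1.18, -1.04 and -1.49. BMD MLC ran from 3.59 through a median of 4.30 to 4.73. ER-Hoxb8 MLC were 5.52, 4.12, 4.72, 4.43, 4.08 and 8.05, where replicate 6 stood apart. No MLC library overlapped a macrophage library for Il1b.

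BMD MLC against BMD macrophages compares marrow cells re-isolated from brain with marrow cells grown in vitro. By the paper, brain cells were homogenized, stained and sorted before lysis, while adherent cultures were lysed in the dish. The brain niche, growth in culture and this handling cannot be told apart. Of 7 tested members 5 were higher and 0 lower, where 30.6% of 12518 genes were called in either direction. Il1b was higher by 7.32 log2 (SE 0.74, adjusted p 9.75e-08), or 159.6-fold. It was below 1 CPM in every macrophage library, so it passed the filter on low values only through MLC and microglia libraries. BMD macrophage replicates 2 and 3 were at the lowest value for Il1b, so this fold rests in part on the offset. The calls for Il18bp, Il1a, Il18 and Il12b were smaller and turned on single macrophage libraries. Il18bp rose by 2.90 (adjusted p 0.0257) but not without BMD macrophage replicate 3 (2.42, adjusted p 0.136). Il1a rose by 2.79 (adjusted p 0.0181), but not without replicate 1 (2.45, adjusted p 0.0898) or 3 (1.96, adjusted p 0.167). Il18 rose by 3.03 (adjusted p 0.0109), but differed by 1.52 (adjusted p 0.189) without replicate 2 and 1.23 (adjusted p 0.0824) with library weights. Il12b rose by 3.89 (adjusted p 0.0234), and its adjusted p was 0.0749, 0.0667 or 0.0578 without replicate 1, 2 or 3, and 0.203 with a pseudocount of 1 CPM. With no filter on low values the adjusted p was 0.0637 for Il12b, 0.0672 for Il18bp and 0.0502 for Il1a. The members had a median difference of 2.90 against -0.01 over all genes.

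ER-Hoxb8 MLC against ER-Hoxb8 macrophages makes the same comparison in the engineered cells, with the same limit, and Il12b, Il18 and Il18bp joined Il1b. Il12b in ER-Hoxb8 MLC was 6.85, 4.82, 7.54, -1.55, 5.82 and 4.44 log2 CPM and was at the lowest value in all 3 ER-Hoxb8 macrophage libraries. Il18bp was 8.82, 8.51, 8.81, 8.40, 8.96 and 8.32 in these MLC, a tight group above the highest macrophage library at 5.21. Il18 was 2.92, 2.55, 2.26, 3.78, 3.23 and 3.82 in MLC and at most -1.35 in ER-Hoxb8 macrophages. Replicate 4 was far below the other ER-Hoxb8 MLC for Il12b, and it still lay above every ER-Hoxb8 macrophage.

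Of the 7 members, 4 were higher and 0 lower in that comparison, where 34.8% of genes were called. Il1b was higher by 6.39 log2 (SE 0.74, adjusted p 3.62e-07), or 84.0-fold. Il18bp was higher by 5.47 (SE 0.97, adjusted p 0.000134), and by 4.68 without macrophage replicate 1 or 6.49 without macrophage replicate 3. For Il18 the difference was 5.78 (adjusted p 1.89e-05), and 6.45 without macrophage replicate 3. Il12b differed by 8.27 on the offset log2 scale (adjusted p 2.4e-05), and its mean CPM was at least 643-fold higher (419-fold without replicate 3), while in replicate 4 it was at least 2.45-fold higher. Il12b passed the filter on low values only through MLC and microglia libraries, and with no filter its adjusted p here was 0.000157. Il1b and Il18 were also below 1 CPM in every ER-Hoxb8 macrophage library, so neither passed the filter through that group. Tnf was 2.06 higher with an adjusted p of 0.0821, and without MLC replicate 4, where Tnf was 1.14, it was called at 2.76 (adjusted p 0.00915). With library weights Tnf (2.75, adjusted p 0.00167), Il1a (2.66, adjusted p 0.00323) and Il1rn (2.36, adjusted p 0.0101) were called higher as well.

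**Figure D1:**
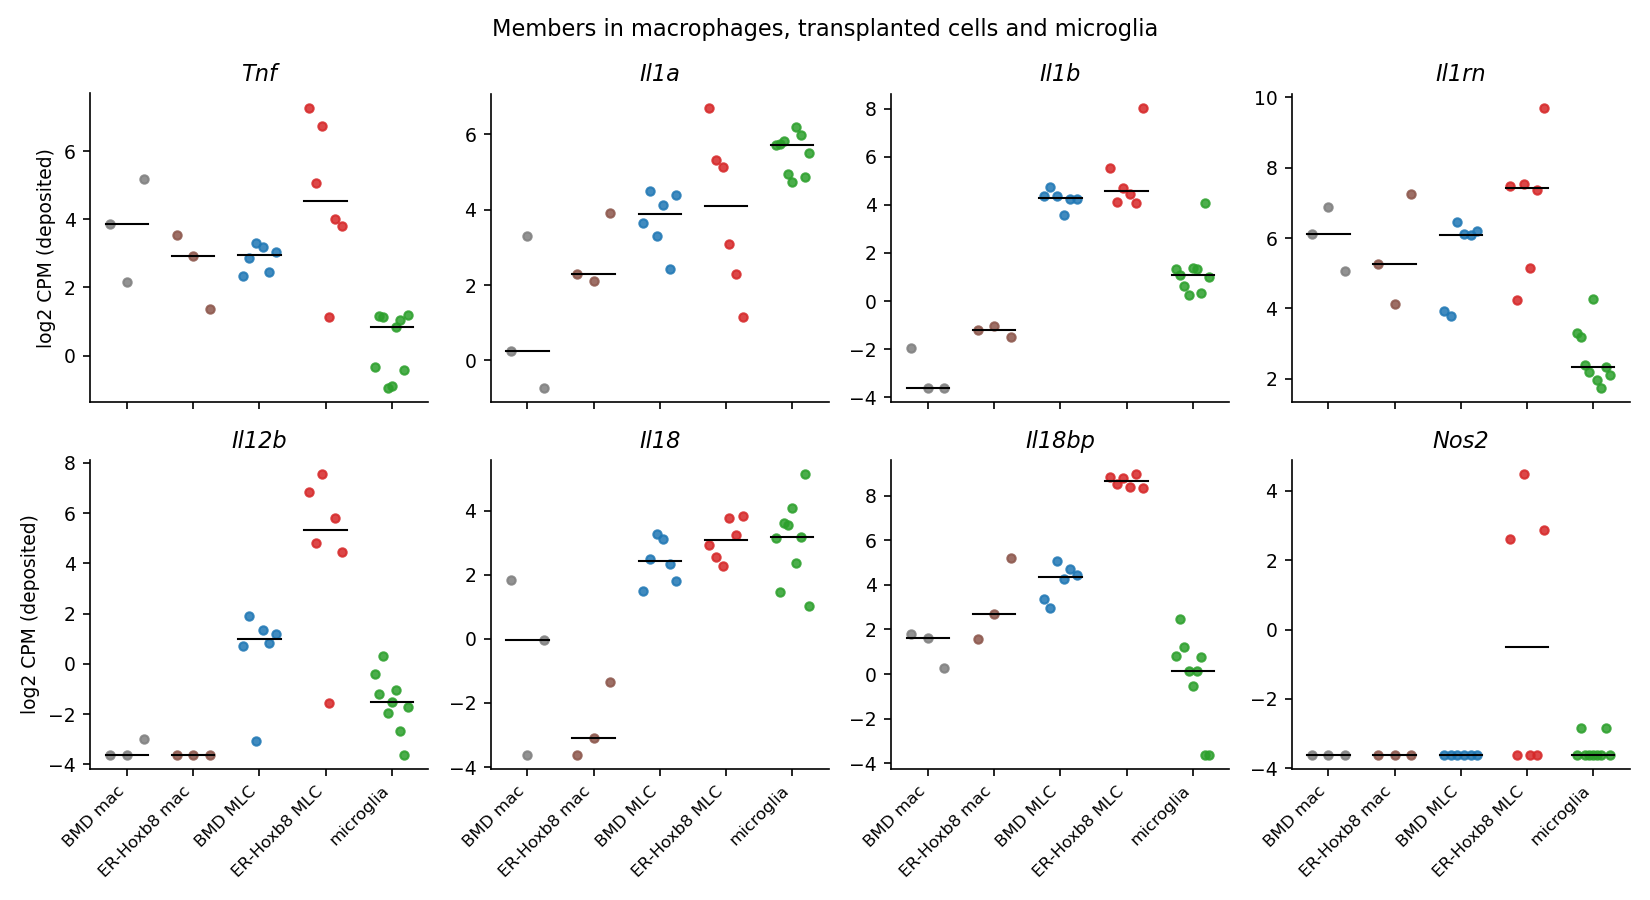
Log2 CPM (vertical axis) of 8 members in each library (points) of BMD macrophages, ER-Hoxb8 macrophages, BMD MLC, ER-Hoxb8 MLC and microglia, with the group median as a black line. Il18bp lay between 8.32 and 8.96 in ER-Hoxb8 MLC and above 5.21 in no other library drawn.

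The panels for the brain set show Il1b raised in both MLC kinds, Il12b spread widely in ER-Hoxb8 MLC, and Il1a highest by group mean in microglia, although its highest library was ER-Hoxb8 MLC replicate 1 at 6.71. Tnf was 2.35, 2.88, 3.30, 3.18, 2.46 and 3.05 log2 CPM in BMD MLC and 7.28, 5.06, 6.75, 1.14, 4.00 and 3.81 in ER-Hoxb8 MLC. In microglia Tnf ran from -0.95 through a median of 0.85 to 1.19. Group means of Tnf fell in the order ER-Hoxb8 MLC, BMD macrophages, BMD MLC, ER-Hoxb8 macrophages and microglia. Each of these overlapped its neighbor except ER-Hoxb8 macrophages and microglia. Only ER-Hoxb8 MLC replicate 4, at 1.14, reached down into the microglial range of Tnf.

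BMD MLC against microglia asks how far marrow cells in the brain resemble the resident cell, and they carried more Tnf, Il1b, Il1rn and Il18bp. Il1rn was 3.94, 3.79, 6.47, 6.11, 6.08 and 6.21 log2 CPM in BMD MLC, and 1.74 to 4.27 with a median of 2.32 in microglia. Il18bp was 3.37, 2.98, 5.07, 4.26, 4.69 and 4.43 in BMD MLC and ran from the lowest value, -3.62, through 0.15 to 2.45 in microglia. The Il18bp ranges were apart, and BMD MLC replicates 1 and 2 overlapped microglia for Il1rn.

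In that comparison 4 of 7 members were higher and 0 lower, where 20.5% of genes were called. Il18bp was 4.39 log2 higher (SE 0.73, adjusted p 5.44e-05), or 20.9-fold. Il1b was 2.99 higher (SE 0.55, adjusted p 0.000229), or 7.95-fold, with microglia replicate 8, at 4.08, inside the MLC range. Il1rn was 2.83 higher (SE 0.65, adjusted p 0.00221), or 7.09-fold. BMD MLC Il1rn and Il18bp moved with neutrophil RNA. Replicates 1 and 2, with the lowest neutrophil sums (8016 and 4757 CPM), had the lowest Il1rn and Il18bp, and the part of neutrophils was not tested. Tnf was 2.56 higher (SE 0.68, adjusted p 0.00747), or 5.89-fold, with all libraries apart. Il1a was lower in all 6 BMD MLC libraries, at 2.42 to 4.50 against 4.75 to 6.18 in microglia, and its difference of -1.77 had an adjusted p of 0.0581. Il12b was not called with all libraries, and it was called without BMD MLC replicate 3 (2.73, adjusted p 0.0413). With library weights Il12b was called higher (1.87, adjusted p 0.0042) and Il1a lower (-1.99, adjusted p 0.00025).

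In ER-Hoxb8 MLC against microglia 5 of 7 members were higher and 0 lower, where 33.9% of genes were called. Il18bp was 8.89 log2 higher (SE 0.73, adjusted p 2.15e-10), or 475.1-fold, with all libraries apart. Il12b, which ran from -3.62 through -1.54 to 0.31 in microglia, was 6.19 higher (adjusted p 1.13e-05), and 7.43 without MLC replicate 4. The libraries through which Il12b passed the filter on low values were nearly all MLC. Tnf was 4.36 higher (SE 0.68, adjusted p 1.38e-05), and 5.07 without MLC replicate 4, and 5 of 6 MLC libraries lay above every microglia library. Il1rn was 4.31 higher (adjusted p 8.61e-06), or 19.8-fold, with ER-Hoxb8 MLC replicate 2, at 4.24, just inside the microglial range. Il1b was 3.89 higher (adjusted p 3.5e-06), or 14.8-fold. Il1a was -1.55 apart (adjusted p 0.0705), and it was called lower without MLC replicate 1 (-2.11, adjusted p 0.0103) or 2 (-1.83, adjusted p 0.0435). Median differences of the members were 4.31 here and 2.56 in BMD MLC, against -0.10 and 0.06 over all genes.

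Between the MLC kinds, which asks whether engineered cells differ from marrow cells once in the brain, Il18bp and Il12b were higher in ER-Hoxb8 MLC. Il18bp did not overlap, and BMD MLC Il12b was 0.70, 1.91, -3.07, 1.34, 0.82 and 1.19 log2 CPM, below 5 of 6 ER-Hoxb8 MLC libraries. Of 7 members 2 were called, where 15.2% of genes were. Il18bp was 4.50 higher (SE 0.80, adjusted p 0.00029), or 22.7-fold. Il12b was 4.17 higher (SE 1.05, adjusted p 0.00756), 3.46 without BMD MLC replicate 3, 5.41 without ER-Hoxb8 MLC replicate 4, and 2.42 (adjusted p 0.162) with ER-Hoxb8 MLC replicates 4 to 6 alone. Tnf was 1.80 higher (adjusted p 0.107) and was called without ER-Hoxb8 MLC replicate 4 (2.51, adjusted p 0.00846). Il1rn was 1.48 higher (adjusted p 0.169) and was called without replicate 2 (2.02, adjusted p 0.0459).

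The rarest members also appeared in ER-Hoxb8 MLC. Nos2 was 2.60, 4.48 and 2.86 log2 CPM in replicates 1, 3 and 6 and at the lowest value in the other 3, and it was at the lowest value in all BMD MLC and all macrophages of that set. Its mean was at least 48.6-fold higher in ER-Hoxb8 MLC than in BMD MLC and at least 55.8-fold higher than in ER-Hoxb8 macrophages. Without replicate 3 these Nos2 floors were 21.7-fold and 24.9-fold. Il10 reached 1.92 and 3.16 in ER-Hoxb8 MLC replicates 3 and 6, with a mean at least 20.3-fold above ER-Hoxb8 macrophages, and at least 7.59-fold without replicate 6. Il6 was above the lowest value in 8 of 9 microglia libraries, with a median of -1.01 log2 CPM. None of Nos2, Il10 and Il6 passed the filter for low values, so no test was made.

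Whether brain and culture differed more in ER-Hoxb8 cells than in marrow cells was tested directly as an interaction. None of the 7 members passed, 0 against 3.28% of genes, and 3 had an unadjusted p below 0.05: Tnf at 2.92 (adjusted p 0.264), Il12b at 4.38 (adjusted p 0.219) and Il18 at 2.75 (adjusted p 0.277). Il12b was called without ER-Hoxb8 MLC replicate 4 (5.62, adjusted p 0.00985), and Il18 without BMD macrophage replicate 2 (4.26, adjusted p 0.031). The count depended on the fit: with library weights 5 of 7 members were called in this interaction, and with a pseudocount of 1 CPM 1 was. The share of all genes was counted in the reported fit only, so none stands beside these other counts. Whether the difference of the members between brain and culture was unlike in ER-Hoxb8 and marrow cells was therefore not settled.

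Within ER-Hoxb8 MLC the differently named columns lay apart in 3 of 7 tested members, where 19.8% of 12518 tested genes lay apart. Mean Tnf was 6.36 log2 CPM in replicates 1 to 3 and 2.98 in replicates 4 to 6, and mean Il1a was 5.72 and 2.18. Il18 ran the other way, at 2.58 and 3.61. Replicates 4 to 6 were also those with the most neutrophil marker RNA, and what set the columns apart was not tested.

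Lists of genes that act with the members were counted in the same comparisons. In ER-Hoxb8 MLC against their macrophages, where 34.8% of all genes were called, 11 of 12 ISGs were higher and 0 lower, with a median of 4.90 log2 against -0.15 over all genes, led by Cxcl10 at 9.88 (adjusted p 3.16e-10) and Oasl1 at 8.82. Of 23 NF-kB regulators 8 were higher and 2 lower, led by Socs1 at 6.86 (adjusted p 1.23e-06) and Socs3 at 5.31, with Tnip1 at -2.72, a share not far from that of all genes. Of 9 inflammasome genes 4 were higher and 1 lower, among them Casp4 at 3.06 (adjusted p 7.08e-05), and Adam17 was -1.28. The decoy receptor gene Il1r2 was 6.13 higher (adjusted p 0.000627). In BMD MLC against BMD macrophages, where 30.6% of all genes were called, 4 ISGs were higher and 1 lower.

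Set against microglia, ER-Hoxb8 MLC had 12 of 12 ISGs higher (median 5.63 against -0.10) and BMD MLC 4 of 12, where 33.9% and 20.5% of all genes were called. Of the 23 NF-kB regulators 11 and 8 were higher, and 0 were lower in either. Nlrc4 was 4.22 higher in ER-Hoxb8 MLC (adjusted p 1.47e-09) and 3.98 in BMD MLC (adjusted p 9.7e-09), while Pycard was -1.43 and -1.79. Il6st, which encodes the signaling receptor chain for IL-6, was -3.31 and -2.15. Il12rb1 was 6.02 higher in ER-Hoxb8 MLC (adjusted p 1.65e-05), Ass1 5.66 and Il27 4.63, and Cd38 was 6.54 higher in BMD MLC. Of the 16 immediate early genes ER-Hoxb8 MLC had 9 higher with 0 lower, and BMD MLC had 6 higher with 2 lower, with Fos at 4.45 and 3.81 and Egr1 at -3.05 in BMD MLC.

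ER-Hoxb8 MLC exceeded BMD MLC in 12 of 12 ISGs (median 3.86 against -0.22), led by Cxcl10 at 8.26 (adjusted p 1.97e-09), and in 5 of 23 NF-kB regulators, led by Socs1 at 5.77 (adjusted p 1.8e-06), where 15.2% of all genes were called. Saa3 was 6.38 higher and Lcn2 was -3.24, both among other cytokine and acute phase genes. In the interaction 7 of 12 ISGs passed against 3.28% of all genes, with Cxcl10 at 9.20 (adjusted p 7.23e-06), although none of the members did. The ISG mean of each ER-Hoxb8 MLC library was 8.46, 7.27, 8.54, 6.85, 7.36 and 8.81 log2 CPM, above every BMD MLC library (2.23 to 4.08).

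Tnf and Il1rn were higher in Adar1 KO macrophages than in NTC macrophages. Tnf was 5.43, 5.28 and 5.29 log2 CPM in guide 1 macrophages and 3.37 and 3.13 in the NTC macrophages of that set. Il1rn was 6.31, 7.19 and 6.97 against 3.98 and 4.23, and Il18bp was 5.93, 4.90 and 3.03 against 3.31 and 3.21. Tnf and Il1rn, whose windows above share no searched motif, were apart by a wide gap, while guide 1 replicate 3 fell below the NTC libraries for Il18bp.

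Of 4 tested members 2 were higher and 0 lower, where 21.8% of 11008 genes were called. Tnf was 2.08 higher (SE 0.19, 95% interval 1.67 to 2.49, adjusted p 1.22e-05), or 4.23-fold. Il1rn was 2.72 higher (SE 0.57, adjusted p 0.00556), or 6.58-fold, but with no filter on low values its adjusted p was 0.0661. Il18bp was 1.36 higher (adjusted p 0.18), and without guide 1 replicate 3 it was called at 2.16 (adjusted p 0.0134). Il1a, at 1.74, 1.56 and 0.74 against 1.31 and 0.97, was not called (adjusted p 0.797). Il1b did not pass the filter, and it was lower in all 3 guide 1 libraries (-0.39, -1.54 and -2.01) than in NTC (0.49 and 0.54), the opposite direction to the baricitinib set below. Only 2 NTC libraries entered this test.

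In progenitors no tested member was called between knockout and control. Tnf was 1.80, 1.62 and 1.94 with guide 1 and 1.75, 2.05 and 2.15 in NTC, and Il1rn was 4.99, 3.99 and 3.49 against 5.90, 4.10 and 3.83, with overlap for each. Of 4 members 0 were called, 0 at unadjusted p below 0.05, and 0.936% of genes were called. The interaction of knockout with cell stage passed for 2 of 4 members, where 13.6% of genes passed. The knockout effect was larger in macrophages by 2.28 log2 for Tnf (SE 0.25, adjusted p 0.000111) and by 3.17 for Il1rn (SE 0.76, adjusted p 0.0176). The Il1rn interaction was lost without NTC macrophage replicate 1 (3.05, adjusted p 0.0607) or with no filter on low values (adjusted p 0.143), and was 2.53 without NTC progenitor replicate 1 (adjusted p 0.013), and that of Il18bp was called without guide 1 macrophage replicate 3 (2.78, adjusted p 0.0185).

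Between progenitor and macrophage most genes differed, and the members did so at about the same rate. In NTC macrophages against NTC progenitors 3 of 4 members were higher, where 71.8% of genes were called: Il1a by 2.91 (adjusted p 0.00018), Il18bp by 2.57 (adjusted p 0.00549) and Tnf by 1.27 (adjusted p 7.62e-05). With no filter on low values the Il18bp adjusted p was 0.0505. Il1a passed that filter only through macrophage libraries, as its mean was -1.8 log2 CPM in NTC progenitors and -2.1 in guide 1 progenitors. Il1rn was not called (-0.50, adjusted p 0.436). With guide 1 all 4 were higher, where 71.3% of genes were called, among them Tnf by 3.55 (adjusted p 5.42e-09) and Il1rn by 2.67 (adjusted p 0.000537).

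Guide 2 libraries were scaled apart and could be tested only against their own progenitors. Il1rn was 6.61, 6.33, 6.31, 6.52 and 6.40 log2 CPM in guide 2 macrophages and 2.90, 3.37 and 2.78 in their progenitors. Tnf was 3.60, 3.46, 3.94, 3.81 and 3.83 against 1.38, 1.51 and 1.57. Each was apart, and 3 of 3 tested members were higher, where 81.3% of genes were called. Il1rn was 3.42 higher (SE 0.13, adjusted p 2.22e-09), Tnf 2.24 higher (SE 0.14, adjusted p 1.03e-07) and Il18bp 4.02 higher (SE 0.70, adjusted p 0.00036), or 2.86 without progenitor replicate 2, which was at the lowest value. Set side by side without a test, mean Il1rn was 6.43 in guide 2, 6.82 in guide 1 and 4.11 in NTC macrophages. In the same order mean Tnf was 3.73, 5.33 and 3.25, and mean Il18bp was 2.78, 4.62 and 3.26. Because guide 2 was scaled apart, these means are not ranked.

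**Figure D2:**
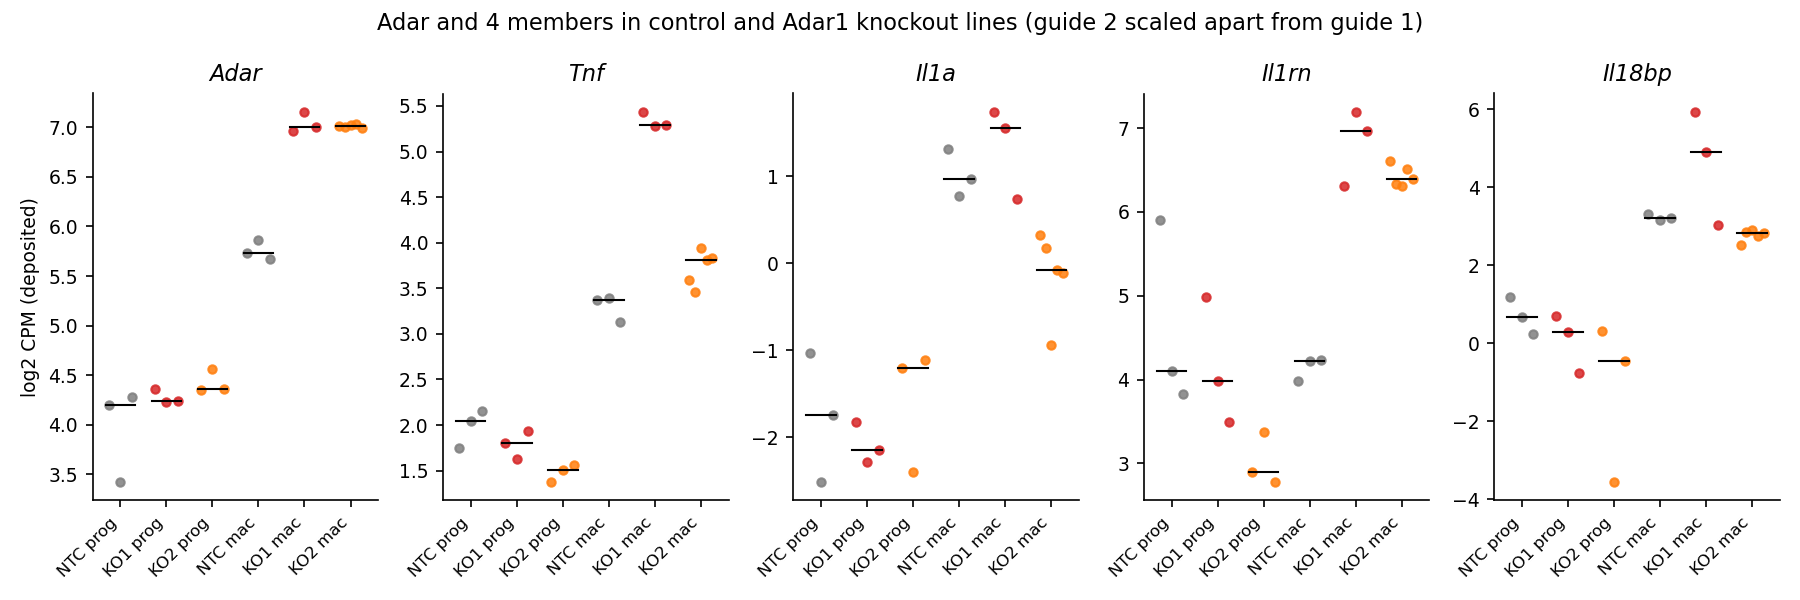
Log2 CPM (vertical axis) of Adar, Tnf, Il1a, Il1rn and Il18bp in each library (points) of NTC, guide 1 and guide 2 progenitors and macrophages, with medians as lines; guide 2 and NTC macrophage replicate 2 were scaled apart. Tnf lay between 5.28 and 5.43 in guide 1 macrophages and at 3.13, 3.37 and 3.39 in NTC.

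In the knockout panels guide 1 and NTC, which share a scale, overlapped for Tnf and Il1rn in progenitors and lay apart in macrophages. Around them, where 21.8% of all genes were called, 11 of 12 ISGs were higher in guide 1 macrophages and 0 lower (median 5.45 against 0.05), led by Rsad2 at 7.04 (adjusted p 2.63e-07). Of 9 inflammasome genes 5 were higher and 0 lower, led by Casp4 at 1.42 (adjusted p 0.000128) and Casp1 at 0.87. Il1r2 was 5.33 higher (adjusted p 9.5e-05) and Il18rap 2.54 higher, while Il6st was -1.93 and Il10ra -1.60. Of 22 NF-kB regulators 2 were higher, Myd88 and Tnip1, each by 0.38. Other cytokine genes were higher in 7 of 14, led by Lcn2 at 3.35 and Il27 at 3.24. In arginine metabolism Ass1 was 3.17 higher. Of 15 immediate early genes 3 were lower, led by Nr4a1 at -2.86, which is near the share of all genes. In progenitors 0 genes of these lists passed, where 0.936% of all genes did.

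The baricitinib experiment repeated the contrast of guide 1 and NTC macrophages in other libraries. Il1rn was again higher in KO, and Il18bp, which was not called in the first knockout set, was higher here. At 0 uM, Il1rn was 6.51, 6.25 and 6.37 log2 CPM in KO and 2.98, 3.00 and 3.00 in NTC. Il18bp was 4.88, 3.45 and 3.99 in KO, and at the lowest value, 0.69 and -0.45 in NTC. Tnf was 4.86, 4.73 and 4.48 in KO and 3.82, 4.39 and 4.09 in NTC. Il1rn and Il18bp were far apart, and Tnf was apart by a narrow gap.

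Of 6 tested members 3 were higher and 0 lower at 0 uM, where 25.3% of 11152 genes were called. Il1rn was 3.39 higher (SE 0.41, adjusted p 5.91e-07), or 10.5-fold. Il18bp was 4.95 higher (SE 1.04, adjusted p 0.000784), or 31.0-fold, and 3.99 higher (adjusted p 0.0104) without NTC replicate 1, which was at the lowest value. Il1a, at 0.66, 0.42 and 0.51 in KO and -1.23, -0.88 and -1.90 in NTC, was 1.87 higher (adjusted p 0.0164). In this set Il1a and Il1b passed the filter on low values only through KO libraries, and with no filter the adjusted p of Il1a was 0.044. The Il1a call was lost without NTC replicate 3 (1.58, adjusted p 0.0815) or KO replicate 1 (1.80, adjusted p 0.052). Il1b was 1.56 higher (adjusted p 0.0518) and was called without KO replicate 3 (2.03, adjusted p 0.0224). Tnf was 0.59 higher (adjusted p 0.16), so the Tnf call of the first knockout set was not met in this fit at 0 uM, although all 3 KO libraries lay above NTC. With library weights Tnf was called higher in KO at 0 uM (0.55, adjusted p 0.023). Il12b was at the lowest value in all NTC libraries at 0 uM and above it in 2 of 3 KO libraries.

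At the lower doses Il1rn and Il18bp were again called higher in KO. At 0.0006 uM 4 of 6 members were higher in KO, where 29.0% of genes were called: Il1rn by 3.13 (adjusted p 1.6e-06), Il18bp by 5.48 (adjusted p 0.000207), Il1a by 2.16 (adjusted p 0.00506) and Il1b by 2.04 (adjusted p 0.00985). With no filter on low values these Il1a and Il1b calls had an adjusted p of 0.0144 and 0.0288. Without NTC replicate 3 the Il1b difference was 1.67 (adjusted p 0.0627). At 0.016 uM 3 of 6 were higher, where 32.2% were called: Il1rn by 3.24 (adjusted p 2.6e-07), Il18bp by 5.14 (adjusted p 0.000158) and Il1b by 1.90 (adjusted p 0.00879). Il1a, at 0.97 higher, was not called there (adjusted p 0.173). The Il1b call was lost without KO replicate 1 (1.61, adjusted p 0.0585), and with no filter its adjusted p was 0.0261. Tnf was 0.72 higher (adjusted p 0.0524) and was called without NTC replicate 3 (0.82, adjusted p 0.0436) or KO replicate 1 (0.88, adjusted p 0.0407). With library weights Tnf was called higher in KO at 0.0006 uM (0.72, adjusted p 0.0103) and at 0.016 uM (0.62, adjusted p 0.0113). Over these doses and 0 uM, Il1rn ran from 5.96 to 6.51 in 9 KO libraries, while no NTC library at any dose exceeded 3.54.

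At 0.4 uM the KO libraries disagreed with each other. Il1rn was 4.63, 7.51 and 4.36 log2 CPM, Il18bp was -0.88, 5.35 and 0.27, and Tnf was 5.14, 6.76 and 5.17. Replicate 2 lay above every other KO library at any dose for Il1rn, Il18bp and Tnf, while replicates 1 and 3 were below all KO libraries of the lower doses for Il1rn and Il18bp. Nos2 at 0.59 and Il6 at 0.69 were also seen in replicate 2.

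Calls at 0.4 uM turned on that library. Against NTC 4 of 6 members were higher, where 13.5% of genes were called: Il1rn by 2.57 (adjusted p 3.92e-05), Tnf by 1.27 (adjusted p 0.00348), Il18bp by 3.55 (adjusted p 0.0156) and Il1a by 1.70 (adjusted p 0.0336). Without KO replicate 2, 1 was left, Il1rn at 1.57 (adjusted p 1.2e-07), with Tnf at 0.73 (adjusted p 0.0613), Il18bp at 1.67 (adjusted p 0.243) and Il1a at 0.94 (adjusted p 0.335). The Il1a call was also lost without NTC replicate 1 (adjusted p 0.0815) or 3 (adjusted p 0.0802), with library weights (1.01, adjusted p 0.0672), with a pseudocount of 1 CPM (0.72, adjusted p 0.0561) or with no filter on low values (adjusted p 0.0886). Without that filter Il18bp was also not called (adjusted p 0.063). Il1b was called without KO replicate 1 (1.82, adjusted p 0.0421) or 3 (2.04, adjusted p 0.022).

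Against 0 uM in KO, 1 of 6 members was called at 0.4 uM, where 26.6% of genes were: Tnf rose by 1.00 (adjusted p 0.0156). Without replicate 2 the picture turned over: Tnf was 0.46 (adjusted p 0.166), and Il1rn at -1.88 (adjusted p 9.47e-10), Il18bp at -4.41 (adjusted p 0.000177) and Il1a at -1.45 (adjusted p 0.0471) were called lower. The Tnf call was also lost without KO replicate 3 at 0 uM (0.89, adjusted p 0.055) or with no filter on low values (adjusted p 0.0563). The interaction at 0.4 uM gave 0 of 6 members, 0 at unadjusted p below 0.05 and 4.76% of genes. Without replicate 2 it was called for Il1rn (-1.82, adjusted p 1.01e-06) and Il18bp (-3.29, adjusted p 0.0456). At 0.0006 and 0.016 uM 0 of 6 members were called against 0 uM in KO, 0 also unadjusted, where 2.34% and 6.21% of genes were called.

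At 10 uM baricitinib the KO macrophages held less Il1rn, Il18bp, Il1a and Tnf than at 0 uM, at a dose where most tested genes were called. Il1rn was 4.84, 5.08, 4.66 and 4.71 log2 CPM, Il18bp was 1.32, 0.79, 0.47 and 0.65, and Tnf was 3.56, 3.11, 4.21 and 3.80. Il1a was -1.64, -1.41, -1.56 and -2.18. For each of Il1rn, Il18bp, Tnf and Il1a all 4 libraries lay below all 3 KO libraries at 0 uM. Il1b was -0.56, 0.19, 0.71 and -0.04, and it overlapped the 0 uM values of 0.10, 0.42 and -1.15.

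In KO 4 of 6 members were lower and 0 higher at 10 uM. The share called was near that of all genes, of which 65.8% were called and 31.9% were lower. Il18bp fell by 3.30 (SE 0.97, adjusted p 0.00414), a 9.83-fold drop. Il1a fell by 2.23 (SE 0.53, adjusted p 0.00062), a 4.69-fold drop. It passed the filter on low values only through KO libraries at lower doses, and its call carries that limit. Il1rn fell by 1.56 (SE 0.39, adjusted p 0.000898), a 2.94-fold drop, and Tnf fell by 1.02 (SE 0.28, adjusted p 0.00246), a 2.03-fold drop. Il1b was not called (0.28, adjusted p 0.667). Adar itself fell by 4.61 (adjusted p 8.68e-10). The member median was -1.29 against 0.05 over all genes.

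In NTC macrophages no such difference was called. At each of the doses 0.0006, 0.016, 0.4 and 10 uM, 0 of 6 members were called against 0 uM and 0 at unadjusted p below 0.05, where 0%, 0%, 0.00897% and 13.8% of genes were called. NTC Tnf stayed between 3.82 and 4.75 over all 17 libraries, and NTC Il1rn between 2.64 and 3.54. The interaction at 10 uM passed for 3 of 6 members, where 39.5% of genes passed. The knockout effect was smaller at 10 uM by a log2 difference of -3.60 for Il18bp (adjusted p 0.046), -2.09 for Il1rn (adjusted p 0.00452) and -1.36 for Tnf (adjusted p 0.0107). The Il18bp interaction was lost without any of 10 libraries: NTC replicates 1 and 3 at 0 uM (-2.63 and -3.80, adjusted p 0.156 and 0.0573), NTC replicates 1, 2 and 3 at 10 uM (adjusted p 0.086, 0.0568 and 0.0721), KO replicates 1 and 3 at 0 uM (adjusted p 0.109 and 0.0629), or KO replicates 2, 3 and 4 at 10 uM (adjusted p 0.0645, 0.0659 and 0.063). It was also lost with no filter on low values (adjusted p 0.158) and with the replicate number as a block (adjusted p 0.0732).

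At 10 uM some members still differed between KO and NTC. Il1rn remained 1.29 higher in KO than in NTC (SE 0.39, adjusted p 0.00755), or 2.45-fold, with all 4 KO libraries above the NTC values of 3.53, 3.54 and 3.52. Il1b, which no NTC library carried into the filtered list, was 2.22 higher (SE 0.55, adjusted p 0.00165), or 4.67-fold, with an adjusted p of 0.00541 when no filter was used. Tnf was now lower in KO by a log2 difference of -0.77 (adjusted p 0.0274). In all, 2 of 6 members were higher and 1 lower, where 45.3% of genes were called. The Tnf call was lost without NTC replicate 1 (adjusted p 0.0583) or 3 (adjusted p 0.118), or KO replicate 1 (adjusted p 0.0572) or 2 (adjusted p 0.113), with quantile normalization (adjusted p 0.0508) or with no filter on low values (adjusted p 0.0932).

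**Figure D3:**
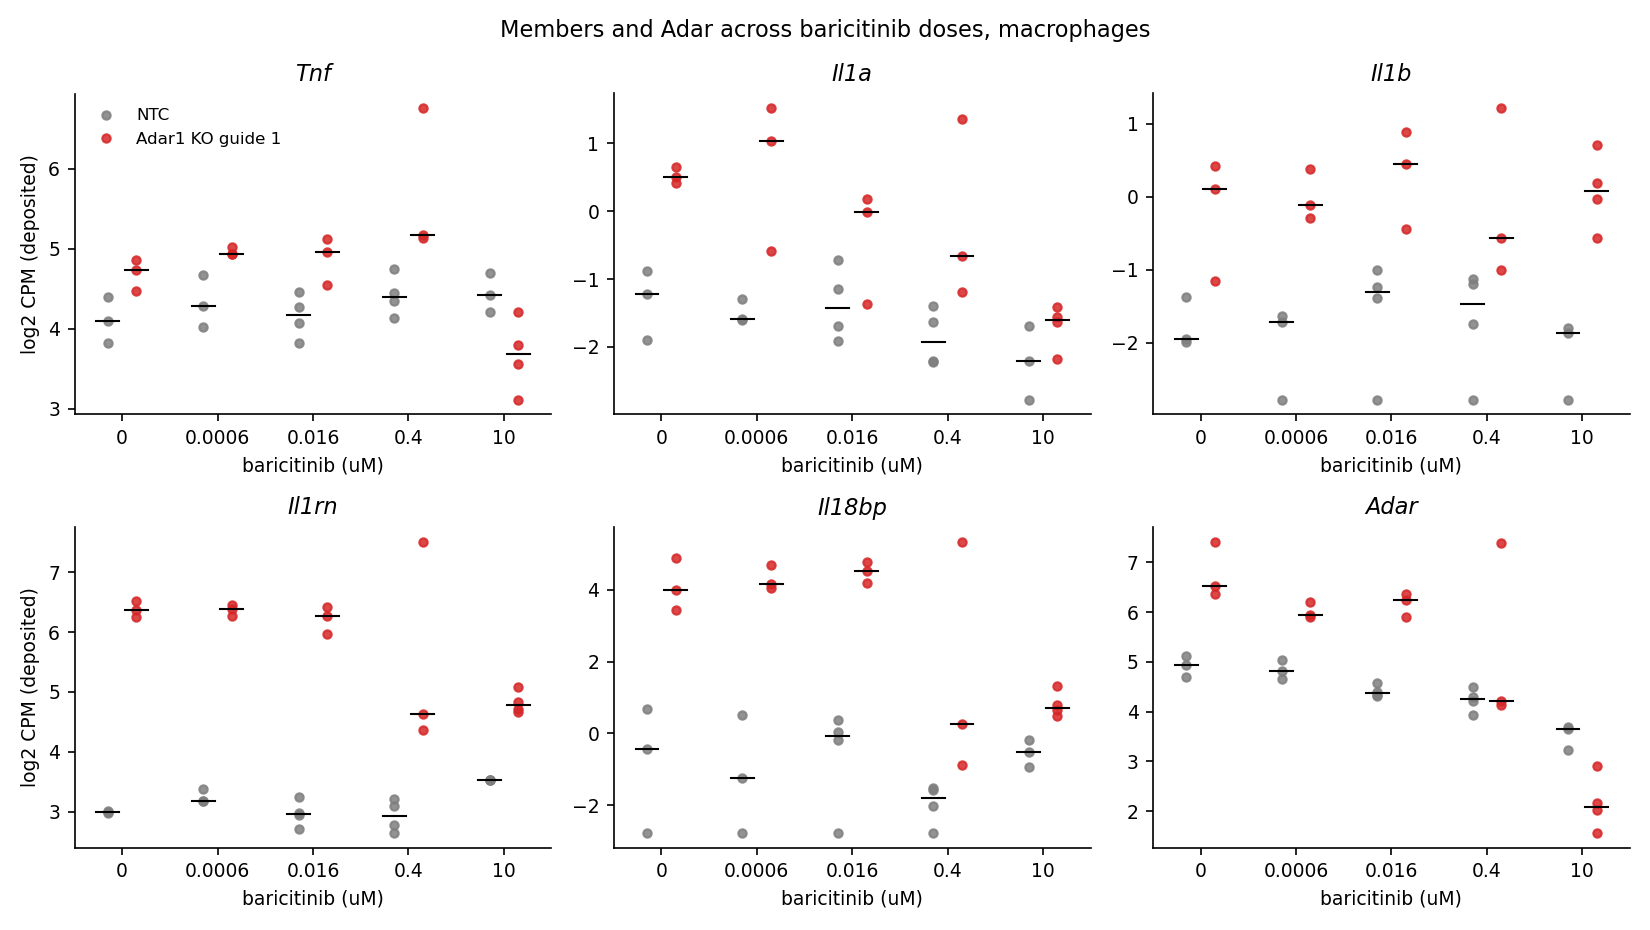
Log2 CPM (vertical axis) of Tnf, Il1a, Il1b, Il1rn, Il18bp and Adar at 5 baricitinib doses in uM (horizontal axis) in NTC (grey) and Adar1 KO (red) macrophages, with points for libraries and lines for medians. Il1rn in KO was 5.96 or more up to 0.016 uM and 4.66 to 5.08 at 10 uM.

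The dose panels show the split of KO replicates at 0.4 uM. NTC Il1rn at 10 uM lay above all 3 NTC libraries at 0 uM, by 0.54 on the mean (adjusted p 0.42), and this difference enters the Il1rn interaction of -2.09. With library weights this NTC difference was called (0.53, adjusted p 0.0165). Over all doses, NTC Il18bp ran from the lowest value, -2.78, through a median of -0.94 to 0.69, and 4 of 17 libraries were at the lowest value. NTC Il1b had a median of -1.75 and KO Il1b of 0.03, the latter over 16 libraries. Il12b was above the lowest value in 8 of 16 KO and 2 of 17 NTC libraries. Il18 ran the other way, in 4 of 16 KO and 10 of 17 NTC libraries, as did Il10, in 4 and 9.

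At 0 uM, where 25.3% of all genes were called, 11 of 12 ISGs were higher in KO (median 4.64 against -0.02), led by Ifit3 at 7.53 (adjusted p 0.00032), and 5 of 22 NF-kB regulators were higher and 1 lower, Tnip3 at -3.67 (adjusted p 1.58e-08), near the share of all genes. Il1r2 was 3.98 higher (adjusted p 7.87e-07), Casp4 1.50, Saa3 4.97 and Slc7a2 2.17, while Il6st was -1.78. ISGs were higher in 10 and 12 of 12 at 0.0006 and 0.016 uM, where 29.0% and 32.2% of all genes were called. At 0.4 uM the count was 10 of 12 against 13.5% of all genes, but the KO ISG means were 1.52, 10.57 and 3.19 against 1.05 to 1.43 in NTC, so it leans on replicate 2. At 10 uM 0 of 12 were called against NTC, 0 also unadjusted, where 45.3% of all genes were, while Il1r2 was still 4.01 higher (adjusted p 7.44e-08) and Saa3 2.10.

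At 10 uM in KO, where 65.8% of all genes were called, 11 of 12 ISGs were lower, with a median of -5.75 against 0.05 and Ifit3 at -9.71 (adjusted p 5.25e-07). Of 22 NF-kB regulators 10 were lower, with Zfp36 at -3.48 and Irak2 at -3.34 (adjusted p 5.5e-13), and 5 were higher, a share near that of all genes. Among receptors Tnfrsf1b was -4.66 (adjusted p 5.76e-14), and among inflammasome genes 5 of 9 were lower and 1 higher, also near that share, with Gsdmd at -1.62, Casp4 at -1.35 and Nlrp3 at -1.33, while Pycard was 1.07 higher. Tnfsf10 was -4.07, Slc7a2 -4.14 and Atf3 -4.20. In NTC at 10 uM, where 13.8% of all genes were called, 1 ISG was lower, Usp18 at -4.46 (adjusted p 0.026), and Tnfrsf1b was -1.71.

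**Figure D4:**
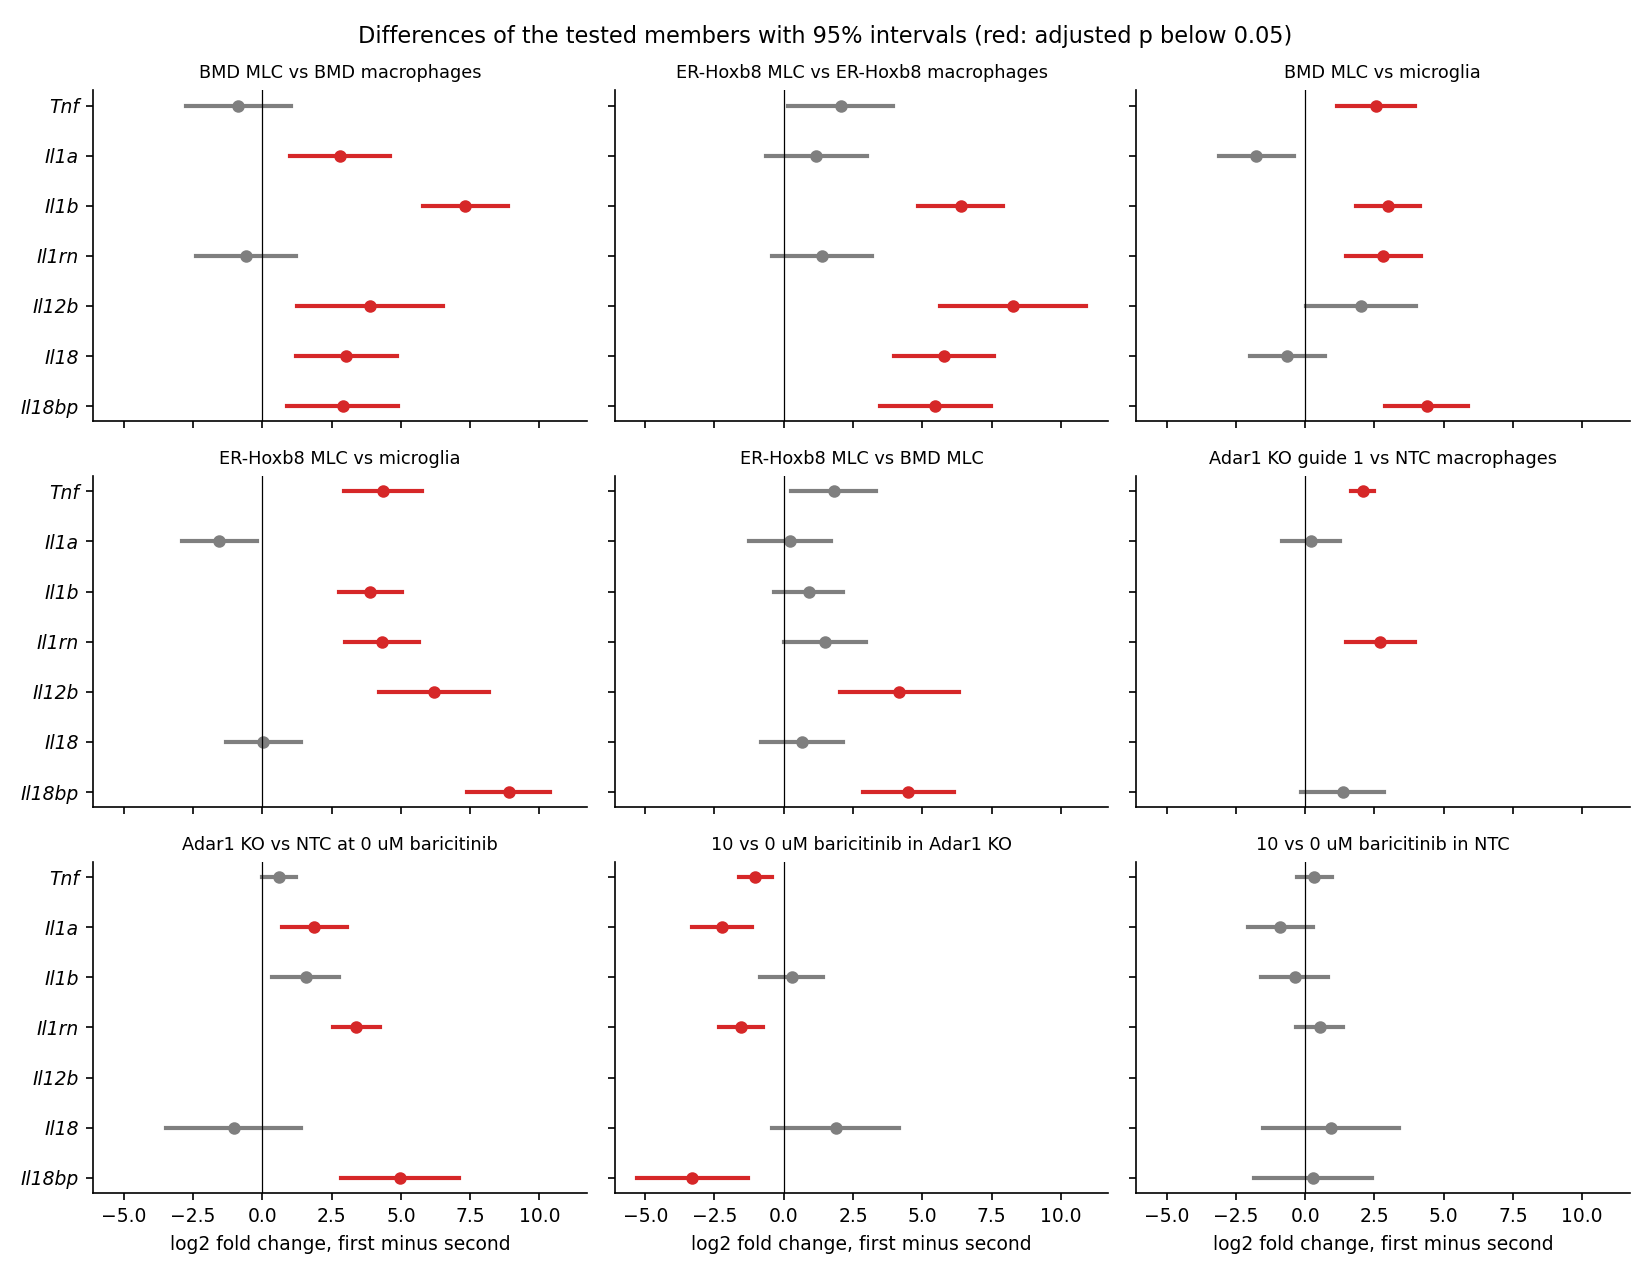
Log2 fold change (horizontal axis) with 95% intervals for 7 members in 9 comparisons, red where the adjusted p was below 0.05 and grey where it was not; a member that was not tested has no point. Tnf in guide 1 against NTC macrophages was 2.08 with an interval of 1.67 to 2.49.

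Read across the 9 comparisons drawn, Il18bp differed in most, and the differences of Il1b were largest between MLC and macrophages. Il1rn was higher than its reference in each contrast with microglia and each contrast of KO with NTC macrophages, and it was the only member for which all 5 dose-matched contrasts of KO with NTC were called. The interval of Tnf was narrowest in the first knockout set.

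Some genes tracked the members closely over libraries. Over 33 baricitinib libraries and 11152 genes, Il1rn was nearest to Ly6c2 (Pearson r 0.985, Spearman 0.913, r 0.984 without the 2 farthest libraries), Gadd45g (0.975) and Ms4a6c (0.971). Il18bp was nearest to Ly6i (0.930, 0.849 and 0.915), Ly6e (0.929) and Ms4a6c (0.929). Tnf was nearest to Tceb3 (0.880, 0.807 and 0.789), and Il1b to Nlrc4 (0.892, 0.864 and 0.870). For Il1a the nearest was Fcgr4 (0.873, 0.803 and 0.854). Over the 27 macrophage and brain libraries and 12518 genes, Il12b was nearest to Gbp5 (0.921, 0.899 and 0.883) and Il18bp to Fcgr4 (0.918, 0.852 and 0.893). In that set Il1b was nearest to Ms4a4c (0.918, 0.866 and 0.899), Il1rn to Ncf4 (0.916, 0.890 and 0.891) and Tnf to Lrrc8c (0.895, 0.890 and 0.864). Groups were pooled and group means were not removed, so genes that differ between the same groups also rank high. Such likeness describes these libraries only.

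Exons of some members overlap other genes, of which Numa1 and Chrnb2 are in the deposited table and Gm14023 and Il1bos are not. Of the exon bases of Il18bp 2.64% overlap Numa1 on the other strand, of Il1a 11.2% overlap Gm14023 and of Il1b 1.31% overlap Il1bos, while 16.8% of Adar overlaps Chrnb2. Whether the counting used strand is not given in the sources used, so the part of such reads in the Il18bp and Il1a results was not tested.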

How the data were processed

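The values were the log2 CPM that the authors deposited, made with kallisto 0.46.0, edgeR and limma after FastQC and MultiQC on GRCm39, as the submitters' processing notes say. CPM was recovered by taking away the offset of each set, read from its lowest value. Tests were made within a set with limma 3.58.1 in R 4.3.3, with trend and Benjamini-Hochberg adjustment over all genes that had more than 1 CPM in at least 3 libraries (6 for the brain set). A gene was called at an adjusted p below 0.05. Tables and drawings used Python 3.11.15, numpy 2.4.6, pandas 2.3.3 and matplotlib 3.10.9, and the code was tested on simulated data. Of the 10 members, 6 passed the filter in the marrow set, 7 in the brain set, 4 among day 7 macrophages alone, 4 and 3 in the guide 1 and guide 2 sets, and 6 in the baricitinib set.

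The members and the gene lists were chosen with earlier results of these data known. Named genes were the 10 members, Adar, of each pathway list up to 3 genes at either end of the log2 differences that passed adjusted p 0.05 in a comparison, the most abundant gene of each marker list with its defining markers, the 3 genes of highest Pearson r with each tested member in the 33 baricitinib and the 27 macrophage and brain libraries, and 4 promoter motifs. The labels do not say that replicate numbers pair libraries. Matched numbers correlated above 0.1 in every pair only for day 4 against ER-Hoxb8 progenitors (r 0.226 to 0.427) and guide 1 against NTC progenitors (0.158 to 0.349), so a pairing there is read from the data, and the fits reported are unpaired. The table holds 1 unnamed line, 0.002256 to 0.05842% of a library, which was left out, and 0 columns were left out. NTC macrophage replicate 2 formed its own set and entered no test. Guide 2 and NTC values lie in different sets and are only set side by side. Fold changes compare groups on the offset log2 scale unless given as "at least".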

Additional observations from a re-analysis of the deposited data

Results flagged for a closer look

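The difference made by Adar1 knockout was itself different at the progenitor and macrophage stages, by a test of the interaction, for Tnf (2.28 log2, adjusted p 0.000111), Il1rn (3.17, adjusted p 0.0176) and Adar (1.03, adjusted p 0.0353). Of all tested genes 13.6% passed this stage interaction. With no filter on low values the adjusted p was 0.143 for Il1rn and 0.166 for Adar, and the Il1rn call was also lost without NTC macrophage replicate 1. The knockout difference at 10 uM baricitinib was different from that at 0 uM, by the same kind of test, for Tnf (-1.36, adjusted p 0.0107), Il1rn (-2.09, adjusted p 0.00452), Il18bp (-3.60, adjusted p 0.046) and Adar (-3.21, adjusted p 0.000369). At this dose 39.5% of all tested genes passed the interaction. The Il18bp call here was fragile: it was lost on leaving out any of 10 libraries, with no filter on low values (adjusted p 0.158) and with the replicate number as a block (adjusted p 0.0732).

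Other entries are libraries far from the rest of their group. Il1b was far above its group in ER-Hoxb8 MLC replicate 6 (8.05 log2 CPM), in microglia replicate 8 (4.08) and in guide 2 macrophage replicate 5 (-0.0221). Il12b was far below its group in BMD MLC replicate 3 (-3.07) and ER-Hoxb8 MLC replicate 4 (-1.55). Il6 was at the lowest value in microglia replicate 8 (-3.62) while the other 8 microglia libraries held some. Il10 was the reverse, above the lowest value in microglia replicate 5 only (-2.77), in guide 2 macrophage replicate 5 only (-2.93) and in KO replicate 2 only at 10 uM (-2.38). Il18 was above the lowest value only in NTC replicate 1 at 0.016 uM (0.46). In all 67 pairs of gene and group were tested and 10 libraries lay apart, where chance sets apart about 1 in 20 groups. At values this near the lowest, a few reads decide the gap.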

How the results depend on the processing

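Of 239 counts of called members under other processing, 203 stayed within 1.5 times the reported count and 36 did not, and of 483 called differences 448 kept call and direction, 35 lost the call and 0 turned. The share of all genes was counted for the reported fits only. A changed count below therefore cannot be set against a change over all genes. Counts ranged, leaving out each library in turn, from 0 to 3 for 0.4 against 0 uM in KO (reported 1), 1 to 5 for KO against NTC at 0.4 uM (4), 0 to 1 for BM monocytes against progenitors (1), 2 to 5 for BMD MLC against macrophages (5), 0 to 1 for the brain interaction (0), 0 to 1 for day 4 against monocytes (1), 0 to 1 for day 4 against ER-Hoxb8 progenitors (0), 1 to 2 for ER-Hoxb8 against BM progenitors (2), 0 to 2 for the interaction at 0.4 uM (0) and 1 to 3 for the interaction of knockout with stage (2). With library weights they were, in KO at 0.4 against 0 uM, 4, in NTC at 10 against 0 uM 1, in KO against NTC at 0 uM 5, in monocytes against progenitors 2, in the brain interaction 5, in day 4 against monocytes 2, in ER-Hoxb8 against BMD macrophages 1 (Il1rn), in ER-Hoxb8 MLC against macrophages 7, in ER-Hoxb8 against BM progenitors 1 and in the interaction at 0.4 uM 1. Without the filter on low values they were 0 in KO at 0.4 against 0 uM, 1 in guide 1 against NTC macrophages, 2 in KO against NTC at 0.4 uM, 0 in monocytes against progenitors, 2 in BMD MLC against macrophages, 1 in ER-Hoxb8 against BM progenitors and 1 in the interaction with stage. A pseudocount of 1 CPM gave 2 in KO at 0.4 against 0 uM, 1 in the brain interaction and 2 in day 4 against monocytes, and quantile normalization gave 2 in monocytes against progenitors and 2 in day 4 against monocytes. ER-Hoxb8 MLC replicates 1 to 3 alone gave 2 in the brain interaction and 4 against BMD MLC, and replicates 4 to 6 alone gave 1 against BMD MLC. The lost call in guide 1 against NTC macrophages and in the interaction with stage was Il1rn. The cause was not tested. Treating the replicate number as a block moved none of 32 counts by more than 1.5 times, with 0 members called in both pairings the data hint at, and under the block the adjusted p was 0.0732 for the Il18bp interaction at 10 uM and 0.0618 for Il1a in KO against NTC at 0.4 uM, with no other call lost. Counts stayed within that bound on adding NTC macrophage replicate 2 (5 of 5) and on leaving out microglia replicates 8 and 9 (2 of 2). Genes near the lowest value, such as Il6, Il10 and Nos2, are limited by depth.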

Other observations

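The untested NTC macrophage replicate 2, scaled apart from the other libraries, held Il1a at 0.77 and Il1b at 0.50 log2 CPM. Among guide 2 libraries Il1a was -1.21, -2.40 and -1.11 in progenitors and 0.32, 0.18, -0.95, -0.08 and -0.12 in macrophages, without a test.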
